A study of Homo sapiens with 21 samples.

Results

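Antisense long non-coding RNAs (lncRNAs) and the genes they are named after were followed in 2 human cell lines under endoplasmic reticulum (ER) stress. The antisense lncRNAs were the rows of the gene count table whose GENCODE v44 symbol ends in -AS and a number, whose annotated biotype is lncRNA, and which reached a level of 1 CPM (counts scaled to the library total) or more in at least 3 of the 21 libraries. There were 506 of them among 1812 rows with such a symbol and biotype, in a table of 60671 rows of which 16558 passed the same filter. The sense gene of each was the gene whose symbol stands before -AS. It was found for 498 antisense lncRNAs (491 distinct genes), and 455 of these sense genes passed the filter, which gave 460 pairs in which both partners were tested. The other 8, such as HOXA-AS2, HOXB-AS3, HOXC-AS2 and TRD-AS1, are named after a gene cluster and had no sense gene of that symbol. The libraries came from OCI-AML3, an acute myeloid leukaemia cell line, untreated (0 h) or given DMSO or 1 µg/mL tunicamycin for 4 h or 24 h, and from HEK293T, an embryonic kidney cell line, given DMSO or 1 µg/mL tunicamycin for 24 h. Each of the 7 groups held 3 replicate libraries of poly(A) RNA and the labels name no genetic change in any group.

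Antisense transcripts run from the DNA strand opposite another gene and can meet it head to head at a shared promoter region, cover its exons, or lie within its introns. Some act in cis on the promoter or mRNA of their neighbour, others act away from it, and for many no function is known. Tunicamycin blocks N-linked glycosylation, so that misfolded glycoproteins build up in the ER and the unfolded protein response starts. The kinase PERK slows translation and raises the transcription factors ATF4 and CHOP, IRE1 splices XBP1 mRNA, and ATF6 is cut to its active form. The comparisons asked which antisense lncRNAs changed with tunicamycin, and whether their sense genes did.

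The libraries held 13838480 to 19961819 counts (median 16657733). By these totals alone, 3 counts in a library, the limit that a count of 0 allows, stood for 0.15 to 0.217 CPM. The TMM factors of 0.896 to 1.16, by which the CPM values below are also scaled, are not in these limits. Correlations between replicates ranged from 0.988 to 0.993. The labels do not say whether replicates were separate cultures, so p-values measure the spread between these libraries, which may be technical. HSPA5, the ER chaperone BiP, rose by 3.29, 3.56 and 2.7 on the log2 scale with tunicamycin in OCI-AML3 at 4 h, in OCI-AML3 at 24 h and in HEK293T. The myeloid factor SPI1 had group means of 212 to 285 CPM in OCI-AML3 and of at most 0.124 CPM in HEK293T, in which N-cadherin (CDH2) was at 66.1 to 79.1 CPM. Of the further markers, MPO reached at most 1.51 CPM in OCI-AML3, and PAX2 and L1CAM at most 1.33 and 1.18 CPM in HEK293T. In bulk samples, fewer cells of a type and less RNA per cell cannot be told apart.

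The sources do not state whether reads were assigned to genes by strand, and without strand, reads of a gene and of its antisense partner cannot be told apart. In the annotation, 401 of the 506 antisense lncRNAs shared exonic bases with their sense gene on the opposite strand, 69 overlapped it without shared exonic bases, 23 started head to head with it without overlap, 4 lay apart, and 1 was annotated on the same strand. Counting all genes, 69 antisense lncRNAs had no exonic base opposite another gene, and 13 lay wholly opposite exons. The counts themselves were compared with the annotation. RSEM splits a read that fits several genes and then gives counts that are not whole, and among genes with a mean of at least 20 counts, 39.4% of the values were not whole where exons overlapped a gene on the same strand, 2.84% where they overlapped on the opposite strand only, and 4.5% where they did not overlap. None of the 150 lncRNAs with more than 90% of their exonic bases opposite another gene had a value that was not whole. Among genes that lay inside 1 exon of a gene on the other strand, the 12 of at least 1.5 kb had a median of 87.2% of that gene's level per kb (range 7.98 to 228%), the 112 shorter than 0.5 kb a median of 0.843%, and the 91 between these lengths a median of 35.5%. These values do not settle the strand setting. The overlaps come from a later annotation than the counts, and they are given below beside each antisense lncRNA described.

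Antisense lncRNAs were low. Their median of mean CPM over the 21 libraries was 2.24 (range 0.21 to 1060), and 356 of 506 were under 5 CPM, 80 were over 10 CPM and 4 were over 100 CPM. The sense genes had a median of 30.3 CPM. Per kb of exon, the median antisense lncRNA stood at 22.7% of its sense gene over 495 pairs with a value above 0, and 103 antisense lncRNAs stood above their sense gene. This share differed with the exonic bases opposite another gene: the median was 21.2% for the 68 pairs with none, 14% for the 153 with up to 10% of their bases opposite, 21.5% for the 121 with 10 to 25%, 29.9% for the 84 with 25 to 50%, and 42.5% for the 69 with more than 50%. It is a description, and no test was made of it. Both cell lines held 347 of the antisense lncRNAs at 1 CPM in at least 1 library, whereas 81 reached it in OCI-AML3 libraries only and 78 in HEK293T libraries only. In OCI-AML3, 354 had a group mean of at least 1 CPM with DMSO at 24 h and 383 with tunicamycin at 24 h, against 357 and 361 in HEK293T.

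**Figure D1:**
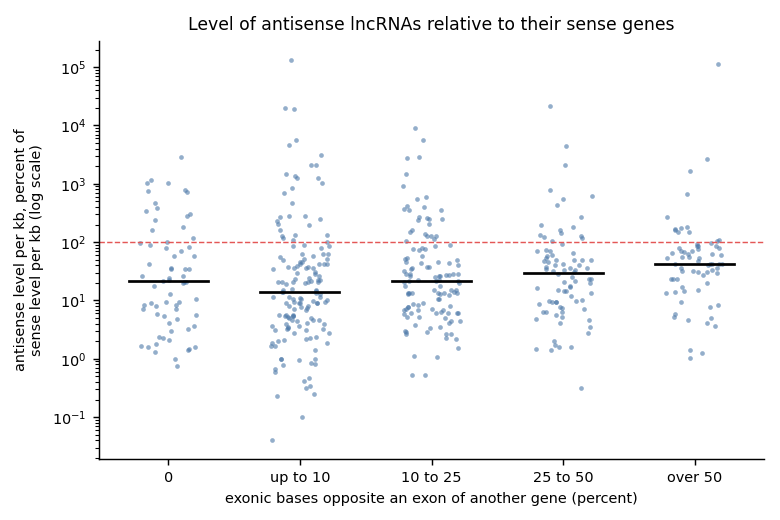
Level of each antisense lncRNA per kb of exon as a percent of the level of its sense gene per kb, over the 21 libraries (log scale), by the percent of its exonic bases opposite an exon of another gene. Each point is 1 pair, black lines are medians (14% to 42.5% across the 5 classes), and the dashed line marks equal levels.

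The 8 antisense lncRNAs with the highest means were TUBA1B-AS1, VIM-AS1, PCBP1-AS1, OIP5-AS1, FGD5-AS1, STARD4-AS1, GABPB1-AS1 and LIMD1-AS1. TUBA1B-AS1 (chr12:49127782-49188484, + strand) is named after a major alpha-tubulin gene and has 35.5% of its exonic bases opposite exons. With DMSO at 24 h it was at 1384, 1414 and 1399.5 CPM in OCI-AML3 and at 948, 928 and 954 CPM in HEK293T. Its counts were 0.451 to 0.502 times those of TUBA1B in every one of the 21 libraries, so that antisense and sense moved in parallel in all 7 groups. VIM-AS1, opposite the gene of the intermediate filament vimentin (30.9% of bases opposite), likewise kept 0.13 to 0.173 times the counts of VIM. LIMD1-AS1, with 71.6% of its bases opposite, ranged from 0.437 to 0.618 times the counts of LIMD1. OIP5-AS1, known as Cyrano and studied as a regulator of microRNAs and of mRNA stability, has 3.39% of its bases opposite and ranged from 3.3 to 17.2 times the counts of OIP5. The part of shared reads was not tested for any of these pairs.

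In OCI-AML3 at 4 h, tunicamycin changed 35 of the 506 antisense lncRNAs (6.92%), of which 25 rose and 10 fell. Changed here means an adjusted p no larger than 0.05 together with a log2 fold change beyond 1 in either direction. Of all 16558 genes tested, 5.28% were called, 3.68% higher and 1.60% lower, so the share among antisense lncRNAs (4.94% higher and 1.98% lower) was near the background. Lower calls came to 6 without tunicamycin replicate 1, to 5 when only the groups compared were fitted and to 4 with a filter of a mean of 1 CPM over the 21 libraries. Of the 506, 9 reached 1 CPM in tunicamycin libraries only, so that they passed the filter through the groups in which they are high. HRG-AS1, UGDH-AS1, KCNJ2-AS1, MMP2-AS1 and MSC-AS1 were those of the 9 called in at least 1 tunicamycin comparison. Without such genes, 33 of 497 antisense lncRNAs were called (6.64%), against 5.06% of all other genes. No test of the list as a whole was made in any comparison. Log2 fold changes were above 0 for 240 antisense lncRNAs (47.4%), as for 47.3% of all genes, and the median of both was 0. Among the 460 pairs, both partners were called in 10, the antisense lncRNA alone in 20 and the sense gene alone in 19, and the 10 joint calls went the same way, 9 of them without UGDH-AS1. The joint calls were SLC7A11, ZBED3, VLDLR, IL21R, PHLDA1, UGDH, CD101, CEBPB and JDP2 with their antisense lncRNAs, which rose, and SLFNL1 with SLFNL1-AS1, which fell. Without DMSO replicate 1, 2 or 3 or tunicamycin replicate 1 or 2, SLFNL1 was no longer called (adjusted p = 0.054 to 0.3). PHLDA1 was just past the fold threshold and came to 0.98 without DMSO replicate 2, 0.92 without tunicamycin replicate 1 and 0.99 without TMM scaling.

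The largest rise was at SLC7A11, which encodes the cystine importer of the xc- antiporter and is a target of ATF4. SLC7A11-AS1 (chr4:138057464-138178177, + strand, 19.9% of bases opposite exons) was at 0.133, 0.0638 and 0.40 CPM with DMSO and at 4.34, 4.07 and 6.2 CPM with tunicamycin. SLC7A11 itself went from 2.93, 5.1 and 4.0 CPM to 115, 113 and 137 CPM. The groups did not overlap for either, and the antisense lncRNA rose by 4.5 ± 0.46 on the log2 scale (± SE throughout, 3 libraries per group, adjusted p = 7.2e-08) and its sense gene by 4.91 ± 0.17 (adjusted p = 5.0e-16). VLDLR, the very low density lipoprotein receptor, and VLDLR-AS1 start 1275 bases apart and share 260 exonic bases. VLDLR-AS1 (chr9:2421597-2622457, - strand) was at 1.46, 2.04 and 1.26 CPM with DMSO and at 7.78, 7.07 and 7.73 CPM with tunicamycin, a rise of 2.25 ± 0.23 (adjusted p = 6.0e-08) beside 2.14 ± 0.11 for VLDLR. Every tunicamycin library lay above every DMSO library for both. Such lack of overlap was common, and it is given here and below as a description. It was found for 41.2%, 47.2% and 47.6% of all genes tested in OCI-AML3 at 4 h, at 24 h and in HEK293T. Among the 506 antisense lncRNAs it was found for 160, 182 and 176 in the same order.

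The interleukin-21 receptor gene IL21R and the bZIP repressor gene JDP2 also rose with their antisense lncRNAs. IL21R-AS1 (chr16:27447669-27453393, - strand, 48.7% of bases opposite) went from 4.92, 7.08 and 7.14 CPM to 26.1, 27.3 and 23.8 CPM, a rise of 2.01 ± 0.14 (adjusted p = 1.4e-10), and IL21R rose by 1.75 ± 0.10 (adjusted p = 1.5e-12). JDP2-AS1 (chr14:75423683-75427741, - strand) starts 25 bases from JDP2 and shares 26 exonic bases with it. It went from 2.6, 1.98 and 1.83 CPM to 4.14, 4.83 and 4.16 CPM. Its rise of 1.04 ± 0.23 (adjusted p = 9.4e-04) was just past the fold threshold and came to 0.94 without DMSO replicate 3, 0.99 without DMSO replicate 2 and 0.98 without tunicamycin replicate 2, while JDP2 rose by 2.06 ± 0.11 (adjusted p = 1.4e-12). The regions before a RefSeq start of both sense genes hold the letters TGATGNAA of the amino acid response element, at which ATF4 with a C/EBP partner is known to bind. They are shown because both pairs moved together, from 250 bases before to 50 after the RefSeq start on GRCh38.p14, with the element in capitals, for IL21R at chr16:27427021-27427320 (+ strand) and for JDP2 at chr14:75427772-75428071 (+ strand, 1 of its 3 starts).
IL21R: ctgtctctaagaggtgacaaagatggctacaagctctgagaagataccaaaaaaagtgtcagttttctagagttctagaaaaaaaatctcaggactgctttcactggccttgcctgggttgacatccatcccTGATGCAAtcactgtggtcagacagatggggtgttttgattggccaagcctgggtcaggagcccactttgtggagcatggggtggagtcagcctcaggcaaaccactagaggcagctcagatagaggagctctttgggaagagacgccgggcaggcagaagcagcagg
JDP2: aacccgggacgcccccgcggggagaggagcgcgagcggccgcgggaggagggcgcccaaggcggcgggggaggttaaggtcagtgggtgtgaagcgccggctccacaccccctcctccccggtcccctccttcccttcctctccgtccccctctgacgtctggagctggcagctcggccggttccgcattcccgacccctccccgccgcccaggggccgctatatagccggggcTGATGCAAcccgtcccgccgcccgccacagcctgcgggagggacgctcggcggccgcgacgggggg
The element spans bases -118 to -111 from the RefSeq start of IL21R and bases -16 to -9 from that of JDP2. This RefSeq start of JDP2 lies downstream of its start in the annotation used for the overlaps. By that annotation, the element lies inside JDP2 and not before the start shared with JDP2-AS1.

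UGDH makes UDP-glucuronate, and CEBPB encodes the transcription factor C/EBP beta. UGDH-AS1 (chr4:39527720-39594707, + strand, 14.7% of bases opposite) was at 0.532, 0.701 and 0.229 CPM with DMSO and at 1.08, 1.71 and 1.97 CPM with tunicamycin (log2 change 1.7 ± 0.42), beside a rise of 1.57 ± 0.08 for UGDH. UGDH-AS1 passed the filter through tunicamycin libraries alone, so its rise is given as a description. CEBPB-AS1 (8.72% opposite) went from 1.13, 1.28 and 0.971 CPM to 2.55, 2.18 and 3.21 CPM and rose by 1.22 ± 0.29 (adjusted p = 0.0024), and CEBPB rose by 1.7 ± 0.09. In neither pair did the groups overlap. PHLDA1-AS1, chosen after its values were seen and 97.2% of whose bases lie opposite PHLDA1, rose by 1.73 ± 0.44 beside 1.01 ± 0.11 for PHLDA1. ZBED3-AS1 rested on 16 counts with tunicamycin and 2 with DMSO over the 3 libraries of each group, a ratio of 8.32 (95% counting interval 1.96 to 74.6), while ZBED3, the gene of an axin-binding zinc finger protein, rose by 3.81 ± 0.28. The fitted log2 change of ZBED3-AS1 went from 2.84 to 5.58 without DMSO replicate 1. Without tunicamycin replicate 2, ZBED3-AS1 was no longer called (adjusted p = 0.071), and CD101-AS1 was lost without DMSO replicate 2, DMSO replicate 3 or tunicamycin replicate 1 (adjusted p = 0.06, 0.077 and 0.16).

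Other antisense lncRNAs rose while the gene they are named after did not pass both thresholds. L3MBTL2-AS1 (chr22:41207592-41228500, - strand) runs opposite L3MBTL2, which encodes a chromatin-binding subunit of a Polycomb complex, with 30.0% of its bases opposite exons. It was at 0.732, 1.21 and 1.31 CPM with DMSO and at 18, 20.5 and 21.2 CPM with tunicamycin. Untreated libraries had 1.48, 1.27 and 0.784 CPM, so that only the tunicamycin libraries were high at this time. The change of 4.17 ± 0.23 (adjusted p = 2.4e-12) stood beside -0.07 ± 0.09 for L3MBTL2 (adjusted p = 0.62), whose libraries held 93.4, 83.3 and 80.3 CPM with DMSO and 85, 82.7 and 76.8 CPM with tunicamycin. EML2-AS1 (chr19:45641494-45642840, + strand), 95.0% of whose bases lie opposite the gene of the microtubule-associated protein EML2, went from 0.266, 0.638 and 0.457 CPM to 1.91, 1.89 and 3.14 CPM and rose by 2.31 ± 0.44 (adjusted p = 2.8e-04), beside 0.37 ± 0.10 for EML2. EPB41L4A-AS1, which was chosen after its values were seen because it is abundant, went from 29, 28.8 and 26 CPM to 60.6, 65.4 and 63.1 CPM and rose by 1.18 ± 0.09, beside 0.46 ± 0.25 for EPB41L4A.

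**Figure D2:**
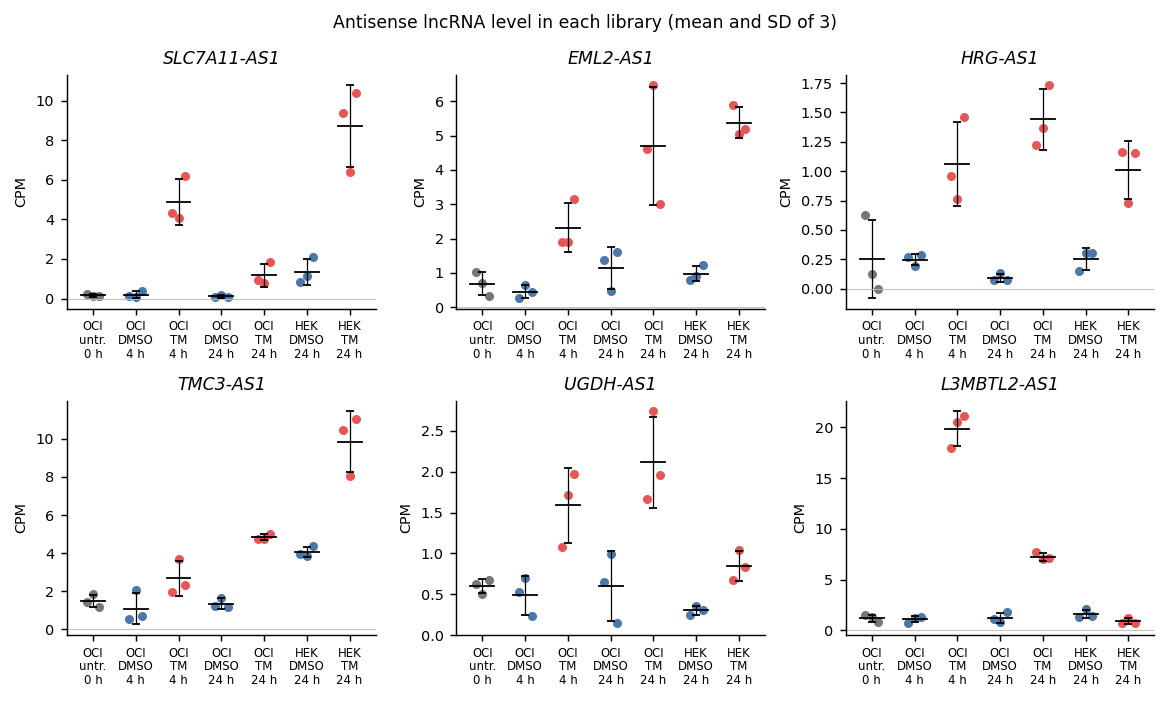
CPM (TMM-scaled) of 6 antisense lncRNAs in each of the 21 libraries, in 7 groups (OCI, OCI-AML3; HEK, HEK293T; TM, tunicamycin), with the mean and SD of 3 libraries as black bars. The first 5 were called higher with tunicamycin in all 3 comparisons, and L3MBTL2-AS1 stood at 18 to 21.2 CPM in OCI-AML3 after 4 h and at 0.677 to 1.25 CPM in HEK293T with tunicamycin.

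Sense genes also rose without their antisense lncRNA. STARD4 encodes a cholesterol carrier that is induced by ER stress, and went from 26.6, 30.9 and 31.5 CPM to 137, 136 and 144 CPM at 4 h, a rise of 2.23 ± 0.12 (adjusted p = 2.1e-12). STARD4-AS1, which starts 2194 bases away and has 24.2% of its bases opposite exons, was at 113, 99.7 and 102 CPM with DMSO and at 75.8, 76.7 and 78.2 CPM with tunicamycin. Its libraries with tunicamycin all lay below those with DMSO, but its change of -0.45 ± 0.06 (adjusted p = 9.7e-06) did not pass the fold threshold. CDKN2B, the gene of the cell cycle inhibitor p15, rose by 2.09 ± 0.23, beside 0.30 ± 0.31 for CDKN2B-AS1, also known as ANRIL (adjusted p = 0.55). DICER1, the microRNA-processing nuclease, fell by 1.19 ± 0.17 on the log2 scale (adjusted p = 5.3e-06), beside -0.38 ± 0.30 for DICER1-AS1.

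Of the 10 antisense lncRNAs that fell at 4 h, NFATC2IP-AS1, singled out after its values were seen, had the highest level. It went from 8.98, 9.56 and 8.57 CPM to 4.85, 4.3 and 4.31 CPM, without overlap, a change of -1.01 ± 0.16 (adjusted p = 3.8e-05), beside -0.25 ± 0.07 for NFATC2IP. The change was just past the fold threshold and came to -0.97 without DMSO replicate 2, -0.96 without tunicamycin replicate 2 and -0.98 without tunicamycin replicate 3. The named others had group means under 2 CPM with DMSO: DNAH17-AS1 (-1.27 ± 0.33), SLFNL1-AS1 (-1.26 ± 0.36), BCAN-AS1 (-1.66 ± 0.46), MAST3-AS1 (-1.33 ± 0.41), FOXP4-AS1 (-1.15 ± 0.41), GPRC5D-AS1 (-1.14 ± 0.36) and ASMTL-AS1 (-1.46 ± 0.50). PRKAG2-AS1, opposite the gene of an AMPK subunit, had 11 counts over the 3 DMSO libraries and 0 with tunicamycin, at least 3.53-fold lower against 3 counts over the group. Of these calls, those of DNAH17-AS1 and PRKAG2-AS1 held in all alternatives that gave a value, and each of the other 6 was lost without at least 1 of the libraries. ASMTL-AS1 came to adjusted p = 0.24, 0.058, 0.14 and 0.054 without DMSO replicate 2 or 3 or tunicamycin replicate 2 or 3, FOXP4-AS1 to 0.11, 0.17 and 0.12 without DMSO replicate 1 or tunicamycin replicate 1 or 2, and GPRC5D-AS1 to 0.084 and 0.068 without DMSO replicate 3 or tunicamycin replicate 3. BCAN-AS1 and MAST3-AS1 came to 0.052 and 0.087 without tunicamycin replicate 1, and SLFNL1-AS1 to 0.066 and 0.05 without DMSO replicate 3 or tunicamycin replicate 2. The log2 change of ASMTL-AS1 came to -0.89 without DMSO replicate 2. That of FOXP4-AS1 came to -0.79 and -1.80 without tunicamycin replicate 1 or 3.

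**Figure D3:**
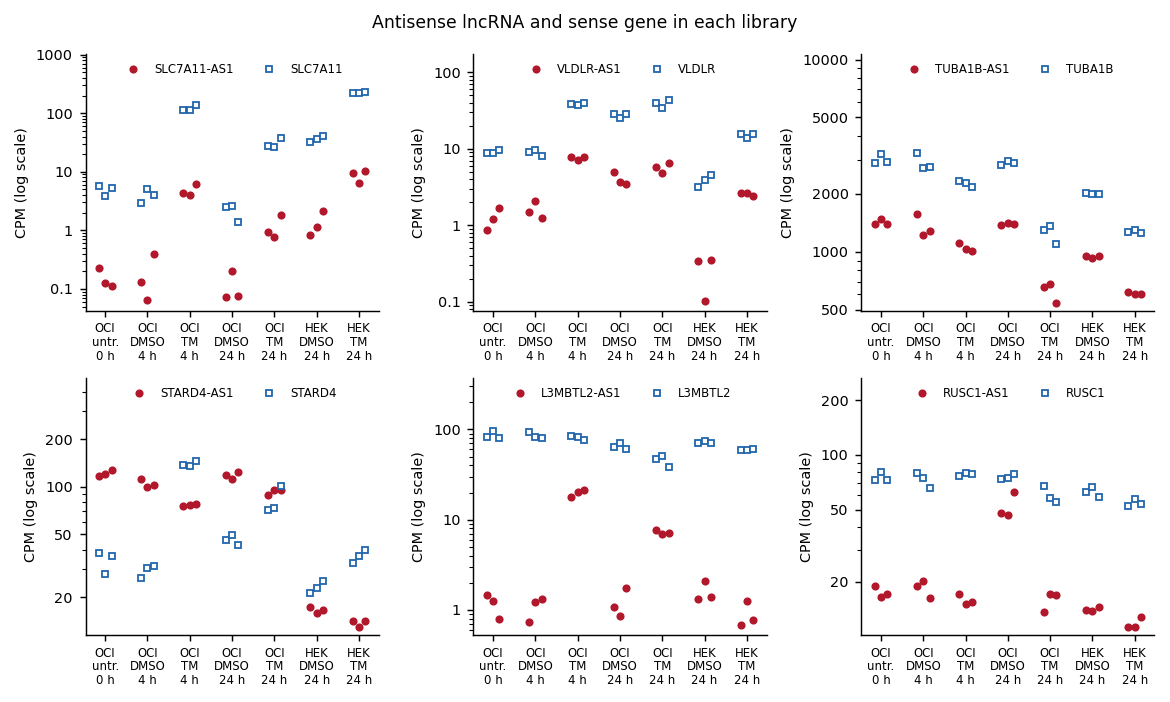
CPM (log scale) of 6 antisense lncRNAs (filled circles) and their sense genes (open squares) in each library of the 7 groups. SLC7A11, VLDLR and TUBA1B changed together with their antisense lncRNA, STARD4 and L3MBTL2-AS1 without their partner at 4 h, and RUSC1-AS1 stood at 46.9 to 62.6 CPM with DMSO at 24 h in OCI-AML3 and at 11.3 to 20.3 CPM in all other groups.

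In OCI-AML3 at 24 h, tunicamycin changed 43 antisense lncRNAs (8.5%), of which 35 rose (6.92%) and 8 fell (1.58%). Of all genes tested, 7.18% were called, 5.03% higher and 2.15% lower. Without genes at 1 CPM in tunicamycin libraries only, these were 39 of 497 (7.85%) and 6.86%. The log2 fold change was above 0 for 322 antisense lncRNAs (63.6%), against 51.7% of all genes, and the median was 0.18 against 0.02. With DESeq2 size factors or with no TMM scaling, 319 and 334 were above 0. Among the classes of overlap, those above 0 were 39 of 69 with no exonic base opposite, 117 of 157 with up to 10%, 87 of 122 with 10 to 25%, 43 of 89 with 25 to 50% and 36 of 69 with more than 50%. Of the 460 pairs, both partners were called in 10, the antisense lncRNA alone in 30 and the sense gene alone in 20, and the 10 joint calls again went the same way, 8 of them without UGDH-AS1 and KCNJ2-AS1, which reached 1 CPM in tunicamycin libraries only. SLC7A11, TENM3, KCNJ2, UGDH, STEAP3 and IL21R rose with their antisense lncRNA, and DDN, GATA2, GASK1B and TUBA1B fell with theirs.

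SLC7A11-AS1 was at 0.0718, 0.199 and 0.0765 CPM with DMSO at 24 h and at 0.938, 0.761 and 1.84 CPM with tunicamycin, a rise of 3.29 ± 0.66 (adjusted p = 3.3e-04) beside 3.82 ± 0.21 for SLC7A11. UGDH-AS1 rose by 1.77 ± 0.41 and UGDH by 1.98 ± 0.08, and IL21R-AS1, at 13.6, 11.6 and 12.1 CPM with DMSO and 30.3, 25.9 and 25 CPM with tunicamycin, rose by 1.12 ± 0.13 beside 1.04 ± 0.09 for IL21R. IL21R was just past the fold threshold and came to 0.95 without DMSO replicate 3 or without tunicamycin replicate 1. STEAP3, an endosomal ferrireductase whose pair was chosen after its values were seen, rose by 1.46 ± 0.09 and STEAP3-AS1 by 1.39 ± 0.20 (adjusted p = 9.4e-06), from 2.73, 2.79 and 2.45 CPM to 7.94, 7.23 and 5.92 CPM. KCNJ2, an inward-rectifier potassium channel gene, rose by 2.7 ± 0.23 and KCNJ2-AS1 by 2.09 ± 0.55, from 0.503, 0.399 and 0.0765 CPM to 1.37, 1.37 and 1.56 CPM. In each of these 5 pairs both partners lay wholly above their DMSO libraries, and UGDH-AS1 and KCNJ2-AS1 had passed the filter through tunicamycin libraries alone, so their rises are given as a description. TENM3-AS1 was detected with 7 counts over the 3 tunicamycin libraries and 0 with DMSO, at least 2.18-fold higher against 3 counts over the group, while the teneurin gene TENM3 rose by 2.34 ± 0.14. The call of TENM3-AS1 was lost when only the groups compared were fitted (adjusted p = 0.063), and its fitted log2 change, which depends on the prior count, was 4.45 by edgeR and 2.40 by limma voom.

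VLDLR-AS1 and JDP2-AS1, which rose at 4 h, did not pass the test at 24 h. VLDLR-AS1 was at 4.88, 3.66 and 3.44 CPM with DMSO and at 5.7, 4.87 and 6.48 CPM with tunicamycin (log2 change 0.51 ± 0.21, adjusted p = 0.051), and JDP2-AS1 at 2.01, 1.4 and 1.99 and 2.31, 2.66 and 3.07 CPM (0.59 ± 0.25, adjusted p = 0.058). For VLDLR-AS1 the DMSO libraries were themselves higher at 24 h than at 4 h, by 1.33 ± 0.24 on the log2 scale (adjusted p = 1.7e-04).

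Without their sense gene, EML2-AS1 and L3MBTL2-AS1 were among the antisense lncRNAs farthest from 0. EML2-AS1 was at 1.36, 0.465 and 1.61 CPM with DMSO and at 4.62, 6.47 and 3.02 CPM with tunicamycin (2.04 ± 0.36, adjusted p = 9.1e-05), beside 0.45 ± 0.10 for EML2. L3MBTL2-AS1 went from 1.08, 0.864 and 1.76 CPM to 7.72, 7.0 and 7.09 CPM (2.57 ± 0.25, adjusted p = 3.0e-08), while the change of L3MBTL2 was -0.52 ± 0.10. Both lay above their DMSO libraries. TRD-AS1, in the T-cell receptor delta locus, rose by 1.92 ± 0.30 (adjusted p = 3.3e-05), from 1.15, 0.598 and 0.842 CPM to 3.1, 3.5 and 3.24 CPM. PAN3-AS1 (chr13:28136843-28138193, - strand), chosen after its values were seen, starts head to head with PAN3, a subunit of an mRNA deadenylase, 313 bases away, and has no exonic base opposite any gene. It went from 3.09, 3.92 and 4.29 CPM to 7.94, 8.75 and 9.33 CPM, a rise of 1.21 ± 0.17 (adjusted p = 5.5e-06), beside 0.78 ± 0.09 for PAN3.

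TPT1-AS1, chosen after its values were seen, is a second head-to-head case. It starts 61 bases from TPT1, which encodes the translationally controlled tumour protein, without overlapping it, and 6.1% of its bases lie opposite other genes. In OCI-AML3 at 24 h it went from 2.87, 2.66 and 2.99 CPM to 6.64, 6.16 and 5.36 CPM, a rise of 1.08 ± 0.16 (adjusted p = 7.8e-06) that came to 0.99 without tunicamycin replicate 1, and in HEK293T from 19.2, 19 and 20.7 CPM to 36.1, 35 and 35.8 CPM, a change of 0.86 ± 0.10 (adjusted p = 1.5e-06) that did not pass the fold threshold. The log2 changes of TPT1 were 0.40 ± 0.13 and 0.49 ± 0.13. Their start regions overlap, and the shared stretch holds the letters TGACGTGG of the unfolded protein response element, which XBP1 and ATF6 can bind. The RefSeq window of TPT1-AS1 on GRCh38.p14, chr13:45341095-45341394 (+ strand), is shown for this, with the element in capitals.
TPT1-AS1: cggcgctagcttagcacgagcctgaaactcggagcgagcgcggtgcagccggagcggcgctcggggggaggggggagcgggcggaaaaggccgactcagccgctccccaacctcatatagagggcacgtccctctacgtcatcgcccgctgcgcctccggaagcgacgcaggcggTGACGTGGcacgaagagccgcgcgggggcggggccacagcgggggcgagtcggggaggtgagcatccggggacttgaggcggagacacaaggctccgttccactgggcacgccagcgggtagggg
The element spans bases -75 to -68 from the RefSeq start of TPT1-AS1 and bases -94 to -87 from the RefSeq start of TPT1 on the other strand. These RefSeq starts lie farther apart than the 61 bases above, which come from the annotation used for the overlaps.

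RUSC1-AS1 (chr1:155316863-155324176, - strand, 31.1% of bases opposite exons) fell most among the antisense lncRNAs called at 24 h. It was at 47.9, 46.9 and 62.6 CPM with DMSO at 24 h and at 13.6, 17.2 and 16.9 CPM with tunicamycin, without overlap. At 4 h it had been at 19, 20.3 and 16.3 CPM with DMSO and at 17.1, 15 and 15.5 CPM with tunicamycin, so that only the DMSO libraries at 24 h stood apart. The tunicamycin effect was -1.72 ± 0.12 (adjusted p = 5.0e-11), the rise from 4 h to 24 h in DMSO 1.5 ± 0.11 (adjusted p = 7.8e-10), and RUSC1, the gene of an adaptor protein with RUN and SH3 domains, was at -0.33 ± 0.08 with tunicamycin. TUBA1B-AS1 fell by 1.16 ± 0.08 on the log2 scale (adjusted p = 2.0e-10), from 1384, 1414 and 1399.5 CPM to 654, 681 and 540.0 CPM, and TUBA1B fell by 1.21 ± 0.08, from 2814, 2959 and 2899.8 CPM to 1302, 1358 and 1099 CPM. GATA2-AS1, at the gene of a haematopoietic transcription factor, fell by 1.23 ± 0.30 and GATA2 fell by 2.27 ± 0.24. DDN-AS1 (-1.11 ± 0.21), GASK1B-AS1 (-1.17 ± 0.34), MIF-AS1 (-1.01 ± 0.17), RCC2-AS1 (-1.53 ± 0.39) and IDI2-AS1 (-1.03 ± 0.26) fell as well. The fold change of DDN-AS1 came to -0.95 without tunicamycin replicate 2, that of MIF-AS1 to -0.99 and -0.79 without DMSO replicate 3 or tunicamycin replicate 3, and that of IDI2-AS1 to -0.88, -0.88 and -1.0 without DMSO replicate 2 or tunicamycin replicate 1 or 3, where they were no longer called. Among sense genes alone, ITGA9, the gene of integrin alpha 9, rose by 2.61 ± 0.22 beside 0.19 ± 0.23 for ITGA9-AS1.

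In HEK293T at 24 h, tunicamycin changed 23 antisense lncRNAs (4.55%), of which 15 rose (2.96%) and 8 fell (1.58%), against 2.53% of all genes, 1.75% higher and 0.779% lower. Without genes at 1 CPM in tunicamycin libraries only, these were 20 of 497 (4.02%) and 2.36%. Lower calls came to 5 without DMSO replicate 2 or without tunicamycin replicate 3. By adjusted p alone, without the fold threshold, the shares ran the other way in each tunicamycin comparison. In OCI-AML3, 21.5% of antisense lncRNAs and 31.9% of all genes passed at 4 h, and 26.7% and 44.1% at 24 h. In HEK293T, 15% and 23.3% passed. Log2 fold changes were above 0 for 253 antisense lncRNAs (50%) and for 46.7% of all genes. Of the 460 pairs, both partners were called in 5, the antisense lncRNA alone in 13 and the sense gene alone in 5. The 5 joint calls, SLC7A11, VLDLR, JDP2, NHSL1 and TICAM2, were all higher. TICAM2 had 14 counts with tunicamycin and 0 with DMSO over the 3 libraries, at least 5.27-fold higher against 3 counts over the group, and it was no longer called without any 1 of DMSO replicates 1 to 3 or tunicamycin replicates 1 and 3 (adjusted p = 0.069 to 0.17).

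SLC7A11-AS1 was at 0.835, 1.13 and 2.1 CPM with DMSO and at 9.38, 6.41 and 10.4 CPM with tunicamycin (2.66 ± 0.31, adjusted p = 8.8e-07), and SLC7A11 went from 32, 36.9 and 40.3 CPM to 219.9, 221 and 231 CPM (2.62 ± 0.14). VLDLR-AS1 went from 0.344, 0.103 and 0.35 CPM to 2.61, 2.6 and 2.43 CPM (3.2 ± 0.32, adjusted p = 1.0e-07), beside 1.94 ± 0.12 for VLDLR. JDP2-AS1 went from 0.54, 0.308 and 0.219 CPM to 1.45, 1.15 and 1.41 CPM (1.9 ± 0.32, adjusted p = 1.3e-04), beside 2.0 ± 0.17 for JDP2. In all 3 pairs the groups did not overlap for either partner. NHSL1-AS1 (chr6:138692548-138697288, + strand) shares 24 exonic bases with NHSL1, the gene of a protein of the cell's leading edge, and starts 23 bases from it. It went from 2.75, 2.15 and 2.67 CPM to 7.54, 7.45 and 10.1 CPM, a rise of 1.72 ± 0.20 (adjusted p = 1.0e-06), beside 1.4 ± 0.14 for NHSL1. Its RefSeq window on GRCh38.p14, chr6:138691418-138691717 (+ strand), holds the amino acid response element letters on the reverse strand, at bases -116 to -109 from its RefSeq start, which lies upstream of the start in the annotation used for the overlaps. It is shown as the window of an antisense lncRNA that rose with its sense gene, with the element in capitals.
NHSL1-AS1: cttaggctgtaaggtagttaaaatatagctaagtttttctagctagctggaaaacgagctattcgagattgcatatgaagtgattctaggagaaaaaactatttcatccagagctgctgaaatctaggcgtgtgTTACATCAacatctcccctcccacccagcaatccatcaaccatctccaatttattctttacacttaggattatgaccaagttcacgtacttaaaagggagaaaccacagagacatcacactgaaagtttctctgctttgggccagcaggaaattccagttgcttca

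EML2-AS1 was at 0.785, 0.924 and 1.23 CPM with DMSO and at 5.9, 5.05 and 5.18 CPM with tunicamycin (2.44 ± 0.34, adjusted p = 1.0e-05), beside 0.73 ± 0.11 for EML2. Per kb, EML2-AS1 stood at 50.4% of EML2 with DMSO and at 167% with tunicamycin. TMC3-AS1, chosen after its values were seen, with 3.61% of its bases opposite and named after a transmembrane channel-like gene, went from 3.98, 3.85 and 4.38 CPM to 10.4, 8.07 and 11.1 CPM and rose by 1.27 ± 0.24 (adjusted p = 3.6e-04), as it had in OCI-AML3 (1.31 ± 0.34 at 4 h and 1.83 ± 0.31 at 24 h). At 4 h the change came to 0.998 without tunicamycin replicate 2 and to 2.12 without DMSO replicate 2. TMC3 did not pass the test in any of the 3. CIRBP-AS1, at the gene of a cold-inducible RNA-binding protein and with 0.295% of its bases opposite, went from 5.15, 5.44 and 5.03 CPM to 2.37, 2.14 and 1.54 CPM and fell by 1.35 ± 0.18 (adjusted p = 6.4e-06), beside 0.23 ± 0.06 for CIRBP. Among the others that fell were HOXB-AS3, HOXC-AS2, MAST3-AS1, CD101-AS1, SPAG5-AS1 and KIAA1614-AS1. MAST3-AS1 was lost without DMSO replicate 2 or 3 or tunicamycin replicate 2 or 3 (adjusted p = 0.14, 0.087, 0.16 and 0.089), CD101-AS1 without any library but tunicamycin replicate 2 (adjusted p = 0.053 to 0.15), SPAG5-AS1 and KIAA1614-AS1 without DMSO replicate 2 (0.094 and 0.086) or tunicamycin replicate 3 (0.064 and 0.1), and the change of HOXB-AS3 came to -0.99 without tunicamycin replicate 2. Among the higher calls, UGDH-AS1 was lost without DMSO replicate 1 or 3 or tunicamycin replicate 2 or 3 (0.088, 0.068, 0.1 and 0.054), ITGA9-AS1 without DMSO replicate 2 or tunicamycin replicate 1 or 2 (0.064, 0.066 and 0.05, with log2 changes of 0.95, 0.96 and 1.02), and ZNF516-AS1 without tunicamycin replicate 1 (0.064).

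**Figure D4:**
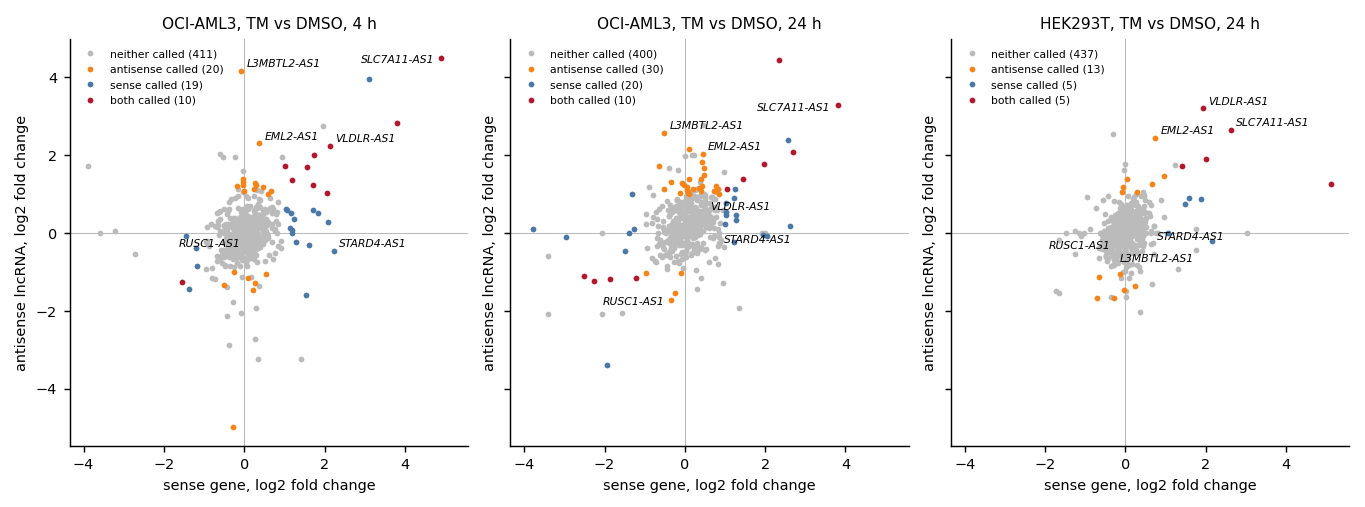
Log2 fold change with tunicamycin of each antisense lncRNA (vertical) against that of its sense gene (horizontal), for the 460 pairs tested, in OCI-AML3 at 4 h, OCI-AML3 at 24 h and HEK293T at 24 h. Colours give which partner was called. The 10, 10 and 5 pairs in which both were called lie where both changes are above 0 or both below 0.

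Across the 460 pairs, antisense and sense log2 fold changes had a Pearson correlation of 0.34 in OCI-AML3 at 4 h, 0.42 at 24 h and 0.37 in HEK293T. The partners of a pair come from the same libraries, low counts widen both, and where exons overlap they may share reads, so these are descriptions. In the 61 pairs whose antisense lncRNA has no exonic base opposite another gene, the correlations were 0.10, 0.41 and -0.02. None of these pairs was called in both partners in any of the 3 comparisons. Only 0, 5 and 1 of their sense genes were called, so at 4 h a joint call was not possible. In the 68 pairs with more than 50% of bases opposite, the correlations were 0.30, 0.50 and 0.47, with 1, 0 and 0 joint calls. They were 0.25, 0.44 and 0.31 with up to 10%, and 0.49, 0.42 and 0.49 with 10 to 25%. With 25 to 50% they were 0.38, 0.17 and 0.33, so they did not rise steadily across the classes. Joint calls came to 3, 3 and 2 with up to 10%, to 4, 4 and 3 with 10 to 25%, and to 2, 3 and 0 with 25 to 50%. All classes count bases opposite any gene, not the sense gene alone, so they do not give the overlap within pairs. The changes had the same sign in 267 of 446, 291 of 442 and 276 of 441 pairs with both changes other than 0. Of the 69 antisense lncRNAs with no exonic base opposite another gene, 3 were called in OCI-AML3 at 4 h (4.35%, against 5.28% of all genes), 3 at 24 h (4.35%, against 7.18%) and 1 in HEK293T (1.45%, against 2.53%). Without genes at 1 CPM in tunicamycin libraries only, MMP2-AS1 among them, these were 3, 2 and 1 of 67 (4.48%, 2.99% and 1.49%), against 5.06%, 6.86% and 2.36% of all other genes. The calls were of BCAN-AS1, FOXP4-AS1 and SP2-AS1, all lower at 4 h, PAN3-AS1, MMP2-AS1 and L3MBTL4-AS1, all higher at 24 h, and ZNF516-AS1, higher in HEK293T. SP2-AS1, MMP2-AS1 and L3MBTL4-AS1, named after their values were seen, were lost without some libraries. SP2-AS1 came to adjusted p = 0.12, 0.053, 0.068 and 0.055 without DMSO replicate 1 or 3 or tunicamycin replicate 1 or 3, MMP2-AS1 to 0.05 and 0.062 without DMSO replicate 2 or tunicamycin replicate 3, and L3MBTL4-AS1 to 0.079 and 0.059 without DMSO replicate 3 or tunicamycin replicate 2.

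Antisense lncRNAs can lie opposite genes other than the one they are named after. In at least 1 tunicamycin comparison, 80 antisense lncRNAs were called (15.8%, against 12.1% of all genes). Of these, 20 had exonic bases opposite another tested gene, and in 8 of the 20 (40%) that other gene was called in the same comparison and direction. None was called in the opposite direction. Of 93 antisense lncRNAs called in none of the 3 comparisons but with such a gene opposite, 9 had it called in at least 1 (9.68%). No test was made of these shares, and HRG-AS1, which is among the 8, reached 1 CPM in tunicamycin libraries only. The genes opposite were looked up after the calls were known. HRG-AS1 (chr3:186579476-186772986, - strand) is named after the liver plasma protein gene HRG, which had 0 CPM in every OCI-AML3 group, but spans a cluster of genes and has 496 bases opposite DNAJB11, the gene of an ER co-chaperone. HRG-AS1 was at 0.266, 0.191 and 0.286 CPM with DMSO and 0.956, 0.766 and 1.46 CPM with tunicamycin at 4 h, at 0.0718, 0.133 and 0.0765 and 1.23, 1.37 and 1.73 CPM at 24 h, and at 0.147, 0.308 and 0.306 and 1.16, 0.729 and 1.15 CPM in HEK293T. Tunicamycin libraries lay above DMSO libraries in each. HRG-AS1 passed the filter through tunicamycin libraries alone, so its rises are given as a description. They were 2.04 ± 0.56, 3.83 ± 0.66 and 1.96 ± 0.52, beside 1.8 ± 0.07, 2.72 ± 0.08 and 1.54 ± 0.07 for DNAJB11, which had group means of 57.4 to 378 CPM.

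RUSC1-AS1 has 693 bases opposite FDPS, which encodes farnesyl diphosphate synthase of the mevalonate pathway, and 400 opposite RUSC1. FDPS was at a mean of 314 CPM with DMSO at 4 h, 746 CPM with DMSO at 24 h and 217 CPM with tunicamycin at 24 h. Its changes of 1.25 ± 0.08 from 4 h to 24 h in DMSO and -1.78 ± 0.08 with tunicamycin at 24 h went the way of RUSC1-AS1 in both. IDI2-AS1 has 643 bases opposite IDI1, an isomerase of the same pathway, which fell by 1.03 ± 0.08 at 24 h, beside -1.03 ± 0.26 for IDI2-AS1. TICAM2-AS1 has 246 bases opposite TMED7, a cargo receptor of the early secretory pathway, and rose by 1.22 ± 0.25 at 4 h and 1.25 ± 0.24 in HEK293T, beside 1.22 ± 0.10 and 1.15 ± 0.10 for TMED7. DIRC3-AS1 (487 bases opposite IGFBP5), TUBA1B-AS1 (68 opposite TUBA1A), HOXC-AS2 (73 opposite HOXC6) and HOXB-AS3 (73 opposite HOXB5) were the others. HOXC-AS2 also has 163 bases opposite HOXC9, and HOXB-AS3 has 425 opposite HOXB6 and 77 opposite HOXB3. In HEK293T these 3 genes changed by -0.9997, -0.78 and -0.62, under the fold threshold. Whether reads of these genes entered the counts of the antisense lncRNAs was not tested.

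In all 3 comparisons, 5 antisense lncRNAs of 506 were called (0.988%, against 0.513% of all genes tested), all higher: SLC7A11-AS1, EML2-AS1, HRG-AS1, TMC3-AS1 and UGDH-AS1. In OCI-AML3, 8 were called at both times (1.58%, against 1.76% of all genes), and at 24 h 7 were called in both cell lines (1.38%, against 0.737%). HRG-AS1 and UGDH-AS1 are among the 9 that reached 1 CPM in tunicamycin libraries only, and without such genes the shares were 3 of 497 (0.604%) against 0.456% in all 3, 1.21% against 1.61% at both times and 1.01% against 0.676% in both lines. No test was made of them. Calls in opposite directions in any 2 of the comparisons were made for 2 (0.395%, against 0.127%), of which CD101-AS1 was higher in OCI-AML3 at 4 h (1.36 ± 0.46) and lower in HEK293T (-1.46 ± 0.49).

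The difference between effects was tested as an interaction. Between 24 h and 4 h in OCI-AML3, 43 antisense lncRNAs passed both thresholds (8.5%, against 5.95% of all genes), of which 35 had the higher effect at 24 h. The 35 came to 21 without DMSO replicate 2 at 24 h and to 23 without tunicamycin replicate 3 at 24 h, and the 8 with the lower effect to 14 without tunicamycin replicate 1 at 24 h. PHLDA1-AS1 (-2.23 ± 0.60), VLDLR-AS1 (-1.73 ± 0.31), L3MBTL2-AS1 (-1.6 ± 0.38) and RUSC1-AS1 (-1.5 ± 0.17) had a lower effect at 24 h, and PAN3-AS1 (1.2 ± 0.25) a higher one. For SLC7A11-AS1 the difference was -1.21 ± 1.14 (adjusted p = 0.46). Between HEK293T and OCI-AML3 at 24 h, 36 passed (7.11%, against 4.77%), 12 with the higher effect in HEK293T. The 24 with the lower effect came to 15 without HEK293T DMSO replicate 2. VLDLR-AS1 (2.69 ± 0.40), RUSC1-AS1 (1.45 ± 0.17), NHSL1-AS1 (1.33 ± 0.29) and JDP2-AS1 (1.31 ± 0.41) had the higher effect in HEK293T, and L3MBTL2-AS1 (-3.39 ± 0.39), STEAP3-AS1 (-1.71 ± 0.30) and CIRBP-AS1 (-1.45 ± 0.29) had the lower effect in HEK293T. L3MBTL2-AS1 had 1.33, 2.1 and 1.4 CPM with DMSO and 0.677, 1.25 and 0.768 CPM with tunicamycin in HEK293T, close to its OCI-AML3 level without tunicamycin.

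DMSO alone moved no antisense lncRNA past both thresholds from untreated cells to 4 h (0 of 506, 0% of all genes by edgeR, and 0 antisense lncRNAs by limma voom and by DESeq2), and 36 antisense lncRNAs and 1304 genes had an unadjusted p under 0.05. From 4 h to 24 h in DMSO, 37 changed (7.31%, against 4.48% of all genes), 27 higher and 10 lower, or 23 higher and 15 lower without TMM scaling, under which the median of all genes was -0.12 against 0 with it. Lower calls came to 3 (with 25 higher) without DMSO replicate 3 at 4 h, to 4 when only the groups compared were fitted and to 6 by DESeq2. RUSC1-AS1 (above), DDN-AS1 (1.69 ± 0.22), TRD-AS1 (1.54 ± 0.41), VIM-AS1 (1.22 ± 0.08) and ITGB2-AS1 (1.12 ± 0.19) were higher at 24 h. VIM-AS1 went from 139, 165 and 151 CPM to 369, 319 and 370.1 CPM, and VIM changed by 1.21 ± 0.07.

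More antisense lncRNAs differed between the cell lines than between treatments. Between HEK293T and OCI-AML3 with DMSO at 24 h, 293 antisense lncRNAs were called (57.9%, against 51.6% of all genes), 159 higher and 134 lower in HEK293T. Without TMM scaling these were 192 and 114, since the median of all genes was then 0.46 in place of 0.11, so directions of small differences rest on the scaling. An antisense lncRNA that passed the filter through 1 cell line alone had to differ, and these counts are read with that. Of the 460 pairs, 173 were called in both partners, 159 of them in the same direction, and the correlation of the differences across pairs was 0.75. MAGI2-AS3, at the gene of the scaffold protein MAGI2, had 0 counts in all 15 OCI-AML3 libraries and 34, 35.7 and 39.2 CPM in HEK293T with DMSO. IRS4-AS1, at an insulin receptor substrate gene, was likewise at 0 in OCI-AML3 and at 30.3, 27.6 and 28.7 CPM in HEK293T. HOXC-AS2 and LOXL1-AS1, at 6.82, 6.57 and 5.56 CPM and 5.84, 6.05 and 5.51 CPM in HEK293T, were at 0 with DMSO at 24 h in OCI-AML3. In the other direction, ITGB2-AS1, at the gene of the leukocyte integrin beta 2, was at 20.3, 26.4 and 35.1 CPM in OCI-AML3 with DMSO and at 0 in HEK293T. ADIRF-AS1 (17.1, 14.8 and 22.4 CPM), PTPRN2-AS1 (12.4, 14.1 and 13.9 CPM) and PAPLN-AS1 (11.8, 11.2 and 13.7 CPM) were also at 0 in HEK293T with DMSO. Of these, ITGB2-AS1 lay higher with tunicamycin at 24 h in OCI-AML3, at 47.6, 40.6 and 58.5 CPM, a change of 0.85 ± 0.17 (adjusted p = 5.2e-04) under the fold threshold.

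**Figure D5:**
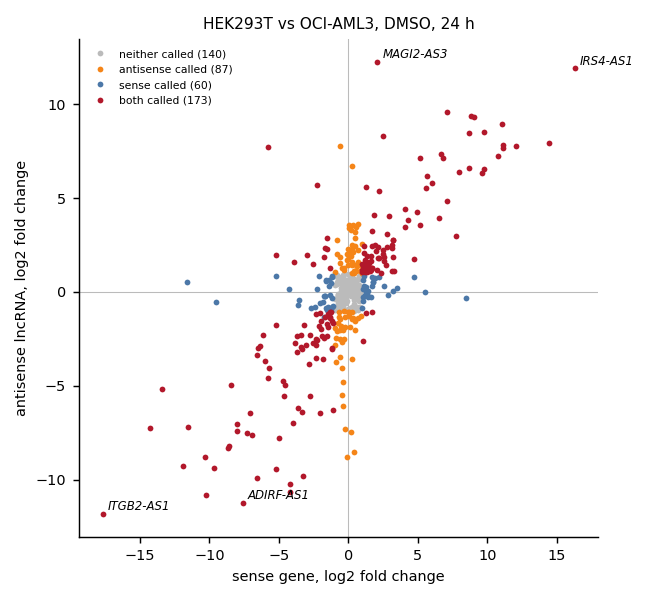
Log2 fold difference between HEK293T and OCI-AML3 with DMSO at 24 h of each antisense lncRNA (vertical) against that of its sense gene (horizontal), for 460 pairs, coloured by which partner was called. Of the 173 pairs called in both, 159 lie where both differences have the same sign. Values of genes at 0 counts in 1 line depend on the prior count and have no exact size.

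Among the antisense lncRNAs of genes from the unfolded protein and amino acid responses (SLC7A11-AS1, VLDLR-AS1, JDP2-AS1, CEBPB-AS1 and STARD4-AS1), 4 of 5 rose in OCI-AML3 at 4 h, 1 at 24 h (SLC7A11-AS1) and 3 in HEK293T, and none fell. Of all genes tested, 3.68%, 5.03% and 1.75% were called higher in the same comparisons. Their median log2 changes were 1.22, 0.51 and 1.9, against medians of 0, 0.02 and -0.01 over all genes tested. STARD4-AS1 was the one that did not rise in any of the 3. The list was drawn up with results of these libraries known, so it is no independent evidence of a direction.

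The HOX genes set position along the body axis, and their clusters hold several antisense lncRNAs. Of 6 measured, none was called in OCI-AML3 at either time, and 2 fell in HEK293T, where 0.779% of all genes tested were called lower. The median change of the 6 there was -0.92, against -0.01 over all genes tested. HOXB-AS3 went from 8.69, 9.29 and 8.75 CPM to 4.64, 3.7 and 4.29 CPM (-1.08 ± 0.19, adjusted p = 2.1e-04) and HOXC-AS2 from 6.82, 6.57 and 5.56 CPM to 2.13, 2.08 and 2.43 CPM (-1.51 ± 0.23, adjusted p = 2.7e-04), without overlap of the groups. HOXB-AS3 was at 43.7, 45.5 and 48.6 CPM in OCI-AML3 with DMSO at 24 h. Of 26 antisense lncRNAs with a described role of their own, such as OIP5-AS1, FGD5-AS1, ITGB2-AS1 and EPB41L4A-AS1, 4 rose in OCI-AML3 at 4 h (15.4%, against 3.68% of all genes), 1 at 24 h (3.85%, against 5.03%) and 2 in HEK293T (7.69%, against 1.75%), and 1 fell in HEK293T (HOXB-AS3, 3.85%, against 0.779%). Those that rose at 4 h were SLC7A11-AS1, VLDLR-AS1 and CEBPB-AS1, which are also in the list of unfolded protein and amino acid response genes, and EPB41L4A-AS1. SLC7A11-AS1 rose at 24 h, and SLC7A11-AS1 and VLDLR-AS1 in HEK293T. The medians of the 26 were 0.03, 0.12 and 0.15, against 0, 0.02 and -0.01 over all genes tested. This list too was drawn up with results of these libraries known, and no test was made of it. FGD5-AS1 went from 115, 114 and 115 CPM to 80.6, 79.5 and 82.6 CPM at 4 h (-0.50 ± 0.06, adjusted p = 9.7e-07), and OIP5-AS1 from 152, 144 and 148 CPM to 213, 229 and 261 CPM at 24 h in OCI-AML3 (0.66 ± 0.07, adjusted p = 4.5e-08), both under the fold threshold.

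Stress element letters were counted on both strands in the RefSeq windows of all genes. TGATGNAA was found in 3.62% of the 35116 windows and in 1.57% of the 446 windows of antisense lncRNAs, TGACGTGG in 0.729% and 0.897%, and the ER stress elements ERSE and ERSE-II in 0.0769% and 0.0541% of all windows and in none of the antisense windows. Of the 57 antisense lncRNAs called higher with tunicamycin, 40 had 44 windows, of which 3 held TGATGNAA (ARSD-AS1, NHSL1-AS1 and ZBED3-AS1, 6.82%) and 1 held TGACGTGG (TPT1-AS1, 2.27%). The change of ARSD-AS1 at 24 h in OCI-AML3 (1.0 ± 0.23) was at the fold threshold and came to 0.90 to 0.98 without DMSO replicate 2 or 3 or tunicamycin replicate 1 or 2. Its call was lost under 11 alternatives in all, among them limma voom (0.989) and DESeq2 (0.995). Of the 74 windows of the sense genes of those that rose, 3 held TGATGNAA (4.05%) and 2 held TGACGTGG (2.7%). These counts are too few to compare, and a match is not a bound site.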

How the data were processed

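RNA-seq libraries of poly(A) RNA were made from 21 samples in 7 groups of 3 replicates. The authors deposited RSEM expected counts per gene (STAR alignment, Ensembl release 101 annotation, GRCh38), with the strand setting not given in the sources used here. Values were rounded to whole numbers. Row IDs were matched to GENCODE release 44 (60401 matched, 270 did not) for symbols, biotypes, exons and strand, so overlaps come from another release than the counts. Genes at 1 CPM or more in at least 3 libraries (16558) were fitted with edgeR 4.0.16 (R 4.3.3): TMM scaling, 1 mean per group over all 21 libraries, and the quasi-likelihood F test with Benjamini-Hochberg adjustment over all genes. Each SE was taken as the absolute log2 change over the root of its F value. CPM refer to TMM-scaled libraries, and values per kb use merged exon length. Named were, in each tunicamycin comparison, up to 8 called antisense lncRNAs and up to 8 called sense genes farthest from 0 in each direction, with their partners; antisense lncRNAs called in an interaction; the 8 with the highest mean; the 4 farthest from 0 in each direction between cell lines; and members of the gene lists, up to 3 per list, direction and comparison. Others, including TMC3-AS1, ARSD-AS1, DIRC3-AS1 and the pairs PHLDA1, STEAP3, PAN3, TPT1, EPB41L4A and NFATC2IP, were chosen after their values were seen. Some genes that meet the rule are not reported here.

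The antisense lncRNAs, their rule and the gene lists were chosen with earlier results of these data known. Alternatives were limma 3.58.1 voom, DESeq2 1.42.0, DESeq2 size factors, no TMM, 3 other filters, only the groups compared, a replicate block and leaving out each library. The fit was tested on simulated data made from the OCI-AML3 4 h comparison over 16558 genes, where it recovered 97% of 100 genes changed by 1.5 and 100% of 100 changed by 3 on the log2 scale. The changed genes were drawn from those above a minimum mean count, and the spread was assumed, not estimated from the libraries. These shares therefore do not cover antisense lncRNAs of low counts. Counting intervals and limits from 0 counts cover counting error only.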

Additional observations from a re-analysis of the deposited data

Results flagged for a closer look

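The effect of tunicamycin differed between times or cell lines, by edgeR's interaction test at an adjusted p of 0.05 or less and a difference beyond 1 on the log2 scale, for the antisense lncRNAs below. All values are differences of log2 fold changes. In OCI-AML3, the effect at 24 h was above that at 4 h for ASMTL-AS1 (2.32), BCAN-AS1 (2.30), DICER1-AS1 (1.31), GPRC5D-AS1 (1.43), ITGB2-AS1 (1.06), NFATC2IP-AS1 (1.22), PAN3-AS1 (1.2), SLC9A3-AS1 (1.67) and TRD-AS1 (2.65). It was below that at 4 h for L3MBTL2-AS1 (-1.60), PHLDA1-AS1 (-2.23), RUSC1-AS1 (-1.50) and VLDLR-AS1 (-1.73). PRKAG2-AS1 had a fitted difference of 5.28, which depends on the prior count, since its libraries with tunicamycin at 4 h held 0 counts.

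At 24 h, the effect in HEK293T was above that in OCI-AML3 for DDN-AS1 (1.96), GATA2-AS1 (1.3), JDP2-AS1 (1.31), NHSL1-AS1 (1.33), RCC2-AS1 (1.84), RUSC1-AS1 (1.45), VLDLR-AS1 (2.69) and ZNF516-AS1 (1.86). It was below that in OCI-AML3 for CIRBP-AS1 (-1.45), KIAA1614-AS1 (-1.33), L3MBTL2-AS1 (-3.39), PAN3-AS1 (-1.29), SLC9A3-AS1 (-1.18) and STEAP3-AS1 (-1.71). TENM3-AS1 had a fitted difference of -4.87, which also depends on the prior count, since its OCI-AML3 libraries with DMSO at 24 h held 0 counts. The DMSO libraries of RUSC1-AS1, VLDLR-AS1, DDN-AS1, TRD-AS1 and ITGB2-AS1 themselves differed between 4 h and 24 h, and the part of this in the differences between times was not tested.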

How the results depend on the processing

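Total counts of called antisense lncRNAs moved by over 1.5 times only with filters that tested fewer of them, while counts in 1 direction also moved this far without single libraries, as given beside each comparison above. With a filter of a mean of 1 CPM over the 21 libraries (388 tested), the counts were 23 in OCI-AML3 at 4 h, 26 at 24 h, 15 in HEK293T and 22 between DMSO times. With a filter of 1 CPM in 8 libraries (373 tested), they were 27 in OCI-AML3 at 24 h and 192 between the cell lines. Under these filters in the same order, lower calls in OCI-AML3 came to 4 and 6 at 4 h, higher calls at 24 h to 19 and 20, lower calls in HEK293T to 5 and 5, lower calls between DMSO times to 4 and 4, and higher calls between the cell lines fell by over 1.5 times under both, to 75 under the second. Leaving out 1 library at a time gave 28 to 35 calls in OCI-AML3 at 4 h, 39 to 49 at 24 h, 17 to 26 in HEK293T, 0 to 0 between DMSO at 4 h and untreated cells, 28 to 41 between DMSO times, 285 to 294 between cell lines, 30 to 48 for the difference between times and 27 to 43 for that between lines. With the replicate number as a block, the counts were 34, 44, 23, 0, 36, 291, 40 and 36 in the same order. Deviations of samples with the same number had correlations of -0.0812 to 0.116. The labels do not say whether such samples were prepared together, and these values cannot show it, so this block is not taken as a pairing. Of 103 calls of genes named for the tunicamycin comparisons, 73 held under every alternative that gave a value, 30 were lost under at least 1, and none reversed. The cause of the losses was not tested. Antisense lncRNAs under about 1 CPM rest on few counts in libraries of these sizes, and how recovery depends on level was not tested.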

Other observations

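Further antisense lncRNAs, chosen after their values were seen, were called in a tunicamycin comparison without being described above. MSANTD2-AS1 (6.99% of bases opposite exons) was called higher at 24 h in both cell lines. It was at 0.359, 0.465 and 0.383 CPM with DMSO and 1.15, 0.837 and 1.84 CPM with tunicamycin in OCI-AML3 (1.68 ± 0.37, adjusted p = 8.3e-04), and at 1.18, 1.08 and 1.36 and 3.0, 2.66 and 2.62 CPM in HEK293T (1.19 ± 0.27, adjusted p = 0.0024), beside 0.48 ± 0.14 and -0.05 ± 0.11 for MSANTD2. The tunicamycin libraries lay above the DMSO libraries in both lines. PRPF31-AS1, at the gene of a spliceosomal protein, rose by 1.73 ± 0.45 in OCI-AML3 at 24 h (adjusted p = 0.0033) while PRPF31 was at -0.65 ± 0.07. RBM26-AS1, at the gene of an RNA-binding protein, rose by 1.18 ± 0.19 (adjusted p = 2.6e-05), beside 0.06 ± 0.10 for RBM26. SGMS1-AS1, at the gene of a sphingomyelin synthase, rose by 1.09 ± 0.15 (adjusted p = 4.6e-06), or 0.93 without tunicamycin replicate 3, beside 0.73 ± 0.16 for SGMS1, which was under the fold threshold.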
